A study of Homo sapiens with 17 samples.

Results

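OGT encodes O-GlcNAc transferase, and 294 of the 389788 peaks in 11 deposited eCLIP peak lists lay on its transcript. A peak belonged to OGT when it was on the plus strand of chromosome X and its midpoint lay between 70752933 and 70795747 (build hg19). This region of 42.8 kb was split at 70768000, 15.1 kb from its 5′ bound, into a 5′ part and the rest. Gene and boundary were chosen by the log2 folds of these same lists, so the folds of OGT peaks over input are given as a description, with no test.

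The study asked which RNA 6 candidate RNA-binding proteins touch in 293T cells, an established human embryonic kidney line. In eCLIP, cells are irradiated with ultraviolet light so that proteins stay fixed to their RNA, 1 protein is pulled down with an antibody, and its RNA fragments are sequenced. The groups were untreated 293T cells, crosslinked on the plate with 400 mJ per square cm at 254 nm and immunoprecipitated with a Bethyl antibody to AIFM1, NUMA1, RANGAP1, VIM or ZNF184 (2 libraries each, called biological replicates in the series) or RNF219 (1 library). Each protein had 1 size-matched input, RNA from the same gel window without pull-down, and its replicates share that input. The lists hold no expression levels, so the identity of the cells was not checked against marker genes.

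OGT, on the X chromosome, transfers single N-acetylglucosamine residues to serines and threonines of nuclear and cytosolic proteins. Its product is therefore a nutrient-linked signal, and cells hold its level within limits. OGT RNA is a textbook case of a detained intron: part of the transcripts keep an intron of the 5′ portion of the gene and stay in the nucleus, and splicing of this intron shifts with the O-GlcNAc level. Of the proteins pulled down, ZNF184 is a zinc finger protein of the C2H2 type, VIM (vimentin) builds intermediate filaments, RANGAP1 activates the GTPase Ran, NUMA1 organises spindle poles, AIFM1 is a mitochondrial flavoprotein and RNF219 has a RING finger. The intron could not be placed on the peaks, because no hg19 gene model was used here. Peaks are therefore described by their distance from the 5′ bound of the region, and the label "retained intron" was not checked. RefSeq lists no other gene that overlaps OGT in build GRCh38, and none of the 11 lists had a minus-strand peak in the region. No sequence is shown, since the hg19 genome was not used here.

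The values of a peak are the authors' log2 fold of eCLIP over input and the authors' -log10 p. Significant means here an enrichment of 8-fold or more (log2 fold 3) together with a -log10 p no lower than 3. Reads behind a fold were recovered from the fold and its p. Where p was saturated, the fold was below input or p did not single out 1 pair of read numbers, only the least reads with that ratio are known. These are given as "at least". Any minimum of input reads used below was applied to these least reads, so it can leave out peaks that had more. Intervals are 95% Clopper-Pearson intervals from recovered reads, or 95% Wilson intervals for shares of peaks, and cover counting error only. The Wilson intervals take abutting pieces of a site as separate peaks, which they are not, so they can be too narrow. The depth of input over eCLIP was lowest for replicate 2 of AIFM1 (0.534) and highest for replicate 1 of VIM (4.84), so a given fold rests on different read numbers in different libraries.

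Every library had OGT peaks, and the stretch with the largest number of them, from 11.5 to 14.8 kb, lay in the 5′ part. The numbers were 19 and 33 in AIFM1, 21 and 25 in NUMA1, 44 and 39 in RANGAP1, 23 in RNF219, 8 and 22 in VIM and 23 and 37 in ZNF184 (replicates 1 and 2). RANGAP1 thus had the most OGT peaks and VIM replicate 1 the fewest. The shares of all peaks of a library lay between 0.0364% in ZNF184 replicate 1 and 0.158% in AIFM1 replicate 1. Peaks were short, with a median of 34 nt and a range of 1 to 127 nt. Peaks that shared at least 1 nt merged to 72 sites, of which 17 were seen in 1 library and 5 with all 6 proteins.

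**Figure D1:**
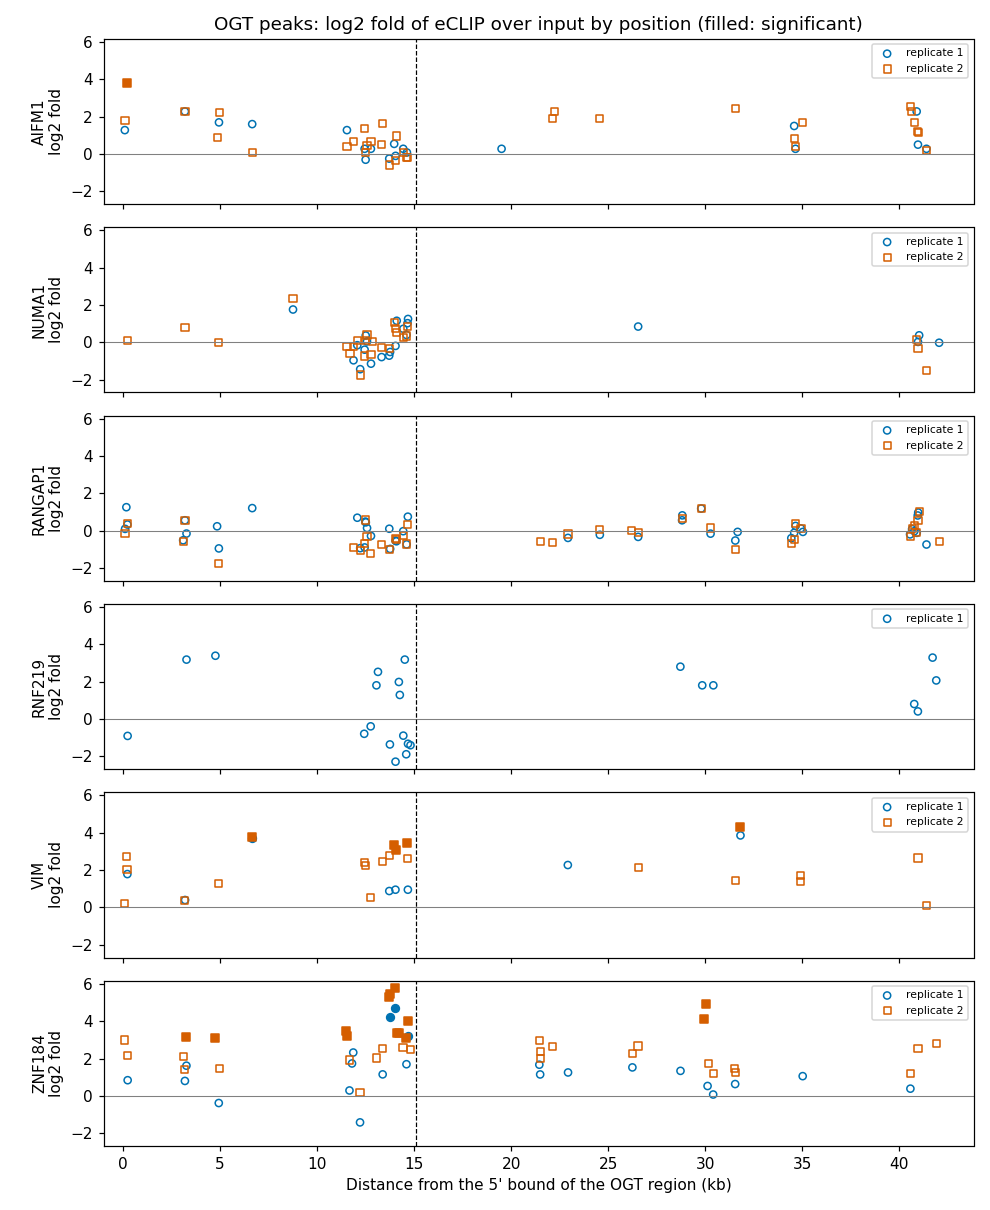
Log2 fold of eCLIP over input (vertical axis) of each OGT peak against its distance in kb from the 5′ bound of the region, 1 panel per protein, circles for replicate 1 and squares for replicate 2, filled where significant; the dashed line is the boundary at 15.1 kb. The highest points are the ZNF184 peaks between 13.7 and 14.7 kb.

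Where gaps of over 1 kb without a peak in any library were used as breaks, the 294 peaks fell into 14 stretches. The stretch from 11.5 to 14.8 kb (chrX:70764430-70767761) held 133 of them (45.2%) at 22 sites, and it was the only stretch with peaks of all 11 libraries. Its share of a library's OGT peaks was 76.2% and 72% in NUMA1, 56.5% in RNF219, 47.4% and 42.4% in AIFM1, 37.5% and 40.9% in VIM, 39.1% and 40.5% in ZNF184 and 31.8% and 33.3% in RANGAP1. NUMA1 peaks were thus the most gathered in this block, and RANGAP1 peaks the most spread. The next largest stretch, from 40.5 to 42.1 kb near the 3′ bound, held 39 peaks of 10 libraries and no significant one. The first stretch, from 0.0740 to 0.253 kb, held 17 peaks of 10 libraries. Narrow stretches at 3.10 to 3.28 kb and 4.75 to 4.98 kb held 16 and 12 peaks.

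**Figure D2:**
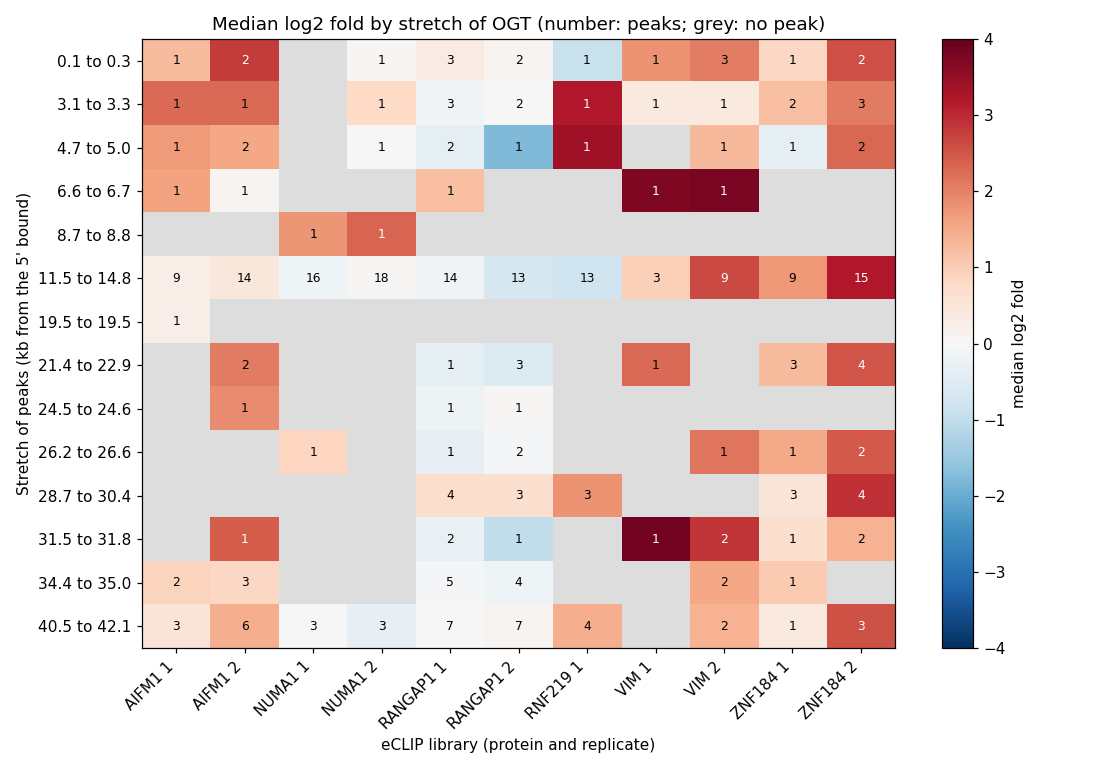
Median log2 fold (colour) of the OGT peaks of each library (columns) in each of the 14 stretches (rows, in kb from the 5′ bound); the number in a cell counts its peaks and grey cells have none. The row from 11.5 to 14.8 kb has peaks in all 11 libraries and is reddest in ZNF184 replicate 2, at a median of 3.20.

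Significant OGT peaks came from ZNF184, VIM and AIFM1. ZNF184 had 3 of 23 in replicate 1 (13.0%, Wilson interval 4.54 to 32.1) and 13 of 37 in replicate 2 (35.1%, 21.8 to 51.2), where 3.15% and 4.82% of all peaks of these libraries were significant. VIM had 1 of 8 (12.5%, 2.24 to 47.1) and 5 of 22 (22.7%, 10.1 to 43.4), against 5.29% and 4.5% of all peaks. AIFM1 had 0 of 19, where a count of 0 sets a limit of 15.8% (3 peaks over 19), and 1 of 33 (3.03%, 0.537 to 15.3), against 0.216% and 0.214%. NUMA1 had 0 of 21 and 0 of 25 (limits 14.3% and 12%; all peaks 1.51% and 0.877%). RANGAP1 had 0 of 44 and 0 of 39 (limits 6.82% and 7.69%; all peaks 1.52% and 2.99%), and RNF219 had 0 of 23 (limit 13.0%; all peaks 0.926%). The contrast is the one that led to the choice of the gene, so nothing is read from these shares against the background. Of the 23 significant OGT peaks, 20 were among the 185 peaks of the 5′ part and 3 among the 109 of the rest. Of the 185 OGT peaks in the 5′ part, 133 were those of the block.

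The share of OGT peaks above input, that is with a log2 fold over 0, also ordered the proteins. All 8 and all 22 VIM peaks were above input, as were 21 of 23 and 37 of 37 ZNF184 peaks. In AIFM1 it was 16 of 19 and 29 of 33, in RNF219 14 of 23, in NUMA1 11 of 21 and 15 of 25, and in RANGAP1 20 of 44 and 15 of 39. Over all peaks of these libraries between 78.4% (RNF219) and 92.5% (VIM replicate 1 and RANGAP1 replicate 2) were above input. For the remaining libraries the share over all peaks was 88.1% and 80.0% in AIFM1, 87.8% and 90.5% in NUMA1, 90.3% in RANGAP1 replicate 1, 91.5% in VIM replicate 2 and 89.3% and 87.2% in ZNF184. RANGAP1 was the protein with most OGT peaks and the one with the smallest part of them above input, 45.5% and 38.5%.

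The median log2 fold of OGT peaks was 0.28 and 0.97 in AIFM1, 0.03 and 0.08 in NUMA1, -0.04 and -0.27 in RANGAP1, 1.30 in RNF219, 1.15 and 2.60 in ZNF184 and, for VIM, 1.37 and 2.32. The means over replicates were 1.88 ± 1.03 (SD, n = 2) in ZNF184, 1.85 ± 0.67 in VIM, 0.63 ± 0.49 in AIFM1, 0.05 ± 0.04 in NUMA1 and -0.16 ± 0.16 in RANGAP1. The libraries of ZNF184 and VIM overlapped, and RNF219 lay within the range of ZNF184. NUMA1 and RANGAP1 were lower in each library than every library of the other proteins. Replicate 2 of ZNF184 exceeded replicate 1 by more than ZNF184 and VIM differed. With at least 10 input reads the median turned below input in AIFM1 (-0.19) and RNF219 (-0.90). The medians over all peaks of a library ran from 0.68 (AIFM1 replicate 2) to 2.27 (VIM replicate 1), so raw medians also carry the level of the library. Minus that level, OGT was at -0.07 and 1.31 in ZNF184, -0.90 and 0.12 in VIM and -0.89 and 0.29 in AIFM1. RNF219 was at 0.22, NUMA1 at -1.34 and -1.26 and RANGAP1 at -1.28 and -1.69. On this scale VIM lay near AIFM1.

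Along the transcript, ZNF184 was higher in the 5′ part than in the rest in both replicates. Its medians were 1.62 in the 5′ part (13 peaks, -1.42 to 4.69) and 1.10 in the rest (10 peaks, 0.07 to 1.67) in replicate 1. In replicate 2 they were 3.05 (22 peaks, 0.18 to 5.77) and 2.40 (15 peaks, 1.19 to 4.93). The difference of the medians was 0.51 and 0.65, a mean of 0.58 ± 0.10 (SD, n = 2). Both parts overlapped widely in each replicate. With the boundary 4 kb nearer the 5′ end, which puts that stretch of 11.5 to 14.8 kb into the rest, the mean turned to -0.44. AIFM1 was lower in the 5′ part, with differences of -0.11 and -1.08 (mean -0.60 ± 0.69), from medians of 0.28 against 0.39 and of 0.60 against 1.68. With the boundary 4 kb nearer the 5′ end AIFM1 turned to 1.27 and RNF219 to 2.14.

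In the other proteins with replicates, the replicates had opposite signs. NUMA1 had differences of -0.35 and 0.42, with 4 and 3 peaks in the rest. RANGAP1 had 0.16 and -0.53, with 21 peaks in the rest in each replicate. VIM had -2.11, from 6 peaks against 2, and 0.74, from 15 peaks against 7. For these 3 proteins, and for AIFM1, the mean difference was smaller than the SD between replicates. RNF219, with 1 library, had a median of -0.59 in the 5′ part (16 peaks, -2.28 to 3.39) and of 1.81 in the rest (7 peaks, 0.41 to 3.30), a difference of -2.40.

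**Figure D3:**
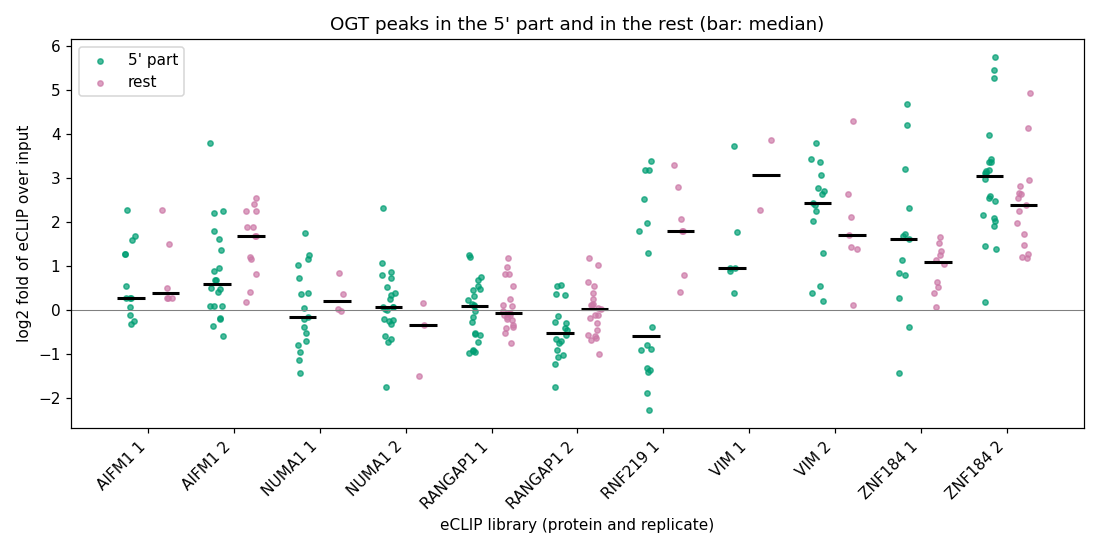
Log2 fold of eCLIP over input (vertical axis) of the OGT peaks of each library, green for the 5′ part and pink for the rest, with black bars at the medians. The median of the 5′ part is above that of the rest in both ZNF184 libraries and below it in both AIFM1 libraries and in RNF219.

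Input reads moved with this split, and their part in the difference was not tested. In RNF219 the median peak had 9 input reads in the 5′ part and 2 in the rest, in AIFM1 4 and 3.5 against 2 and 1, while VIM had 10.5 and 10 against 2.5 and 5 (least reads where not settled). For ZNF184 the parts were nearly equal, at 16 against 16.5 and 13 against 11. With at least 10 input reads on both sides, ZNF184 had differences of 0.21 and 0.71, from 9 against 7 and 12 against 8 peaks. NUMA1 had -0.15 and -0.13 under this minimum, the same sign in both replicates, from 15 against 4 and 19 against 1 peaks. Under this minimum neither AIFM1 library nor VIM replicate 1 had a peak left in the rest, and RNF219 had 1.

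The boundary of the rule fell into a gap of peaks. The last peak of the 5′ part lay at 14.6 to 14.8 kb in every library, with log2 folds from -1.40 to 3.22. The first peak of the rest lay between 19.5 kb (AIFM1 replicate 1) and 40.9 kb (NUMA1 replicate 2), with log2 folds from -0.56 to 2.97. Outside the region, the nearest plus-strand peaks lay between -155 and -67.2 kb on the 5′ side (log2 folds from -0.46 to 3.60) and between 45.8 and 2030 kb on the 3′ side (0.81 to 4.60), counted from the 5′ bound. The first and last peaks inside had log2 folds from -0.90 to 2.99 and from -1.50 to 3.86.

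In the block from 11.5 to 14.8 kb ZNF184 was higher than on the rest of the transcript. It had medians of 1.74 in the block against 0.95 in its other OGT peaks in replicate 1, and 3.20 against 2.33 in replicate 2, a mean difference of 0.83 ± 0.06 (SD, n = 2). With at least 10 input reads it was 0.88 ± 0.25. Before the block ZNF184 had medians of 0.82 (4 peaks) and 2.17 (7 peaks), below the 1.10 (10 peaks) and 2.40 (15 peaks) after it. Neither ZNF184 library had a peak in the stretches at 6.60 to 6.67 kb and 8.73 to 8.78 kb. NUMA1 and RANGAP1 had mean differences between block and other OGT peaks of -0.29 ± 0.37 and -0.37 ± 0.36, and AIFM1 had -1.23 ± 0.17. RNF219 was at -2.73, from a block median of -0.79 and a median of 1.94 elsewhere. VIM was at -1.32 and 0.93, so its replicates differed in sign. With at least 10 input reads RNF219 was at -1.11, from 7 peaks in the block against 2 elsewhere, and VIM at 0.55 and 2.34, from 3 against 1 and 7 against 4 peaks. Under this minimum NUMA1 was at -0.51 ± 0.09 and RANGAP1 at -0.43 ± 0.30, while neither AIFM1 library had a peak left outside the block. The AIFM1 medians were 5 and 4.5 input reads in the block against 2.5 and 1 outside it (least reads where not settled).

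Within the block, 3 sites had a peak in all 11 libraries, so that every protein can be read at the same place. Where a library had the site in several pieces, its value is the mean log2 fold weighted by length. At the site from 13.7 to 13.8 kb (chrX:70766615-70766718, 104 nt) ZNF184 was at 4.20 and 5.34. VIM was at 0.88 and 2.77 there. The remaining libraries were all below input, at -0.24 and -0.59 in AIFM1, -0.64 and -0.31 in NUMA1, -0.23 and -1.02 in RANGAP1 and -1.36 in RNF219. ZNF184 lay above every other library and its replicates did not overlap with those of VIM. Minus the library median, ZNF184 was at 2.98 and 4.05 there and VIM at -1.39 and 0.58. On that scale VIM replicate 1 was level with AIFM1, at -1.41 and -1.27.

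At the site from 14.0 to 14.1 kb (chrX:70766886-70767004, 119 nt) the order was similar. ZNF184 was at 4.69 and 5.77, and VIM at 0.95 and 3.20. NUMA1 was at -0.19 and 0.80, AIFM1 at -0.03 and -0.36, RANGAP1 at -0.53 and -0.41 and RNF219 at -2.28, the lowest OGT value in any list. At the site from 14.5 to 14.7 kb (chrX:70767476-70767632, 157 nt) ZNF184 was lower, at 2.20 and 3.40, and overlapped with VIM at 0.95 and 3.16. NUMA1 was at 0.68 and 0.52, AIFM1 at 0.08 and -0.19, RANGAP1 at -0.11 and -0.33 and RNF219 at -1.71. At all 3 sites RNF219 had the lowest value and ZNF184 the highest mean.

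**Figure D4:**
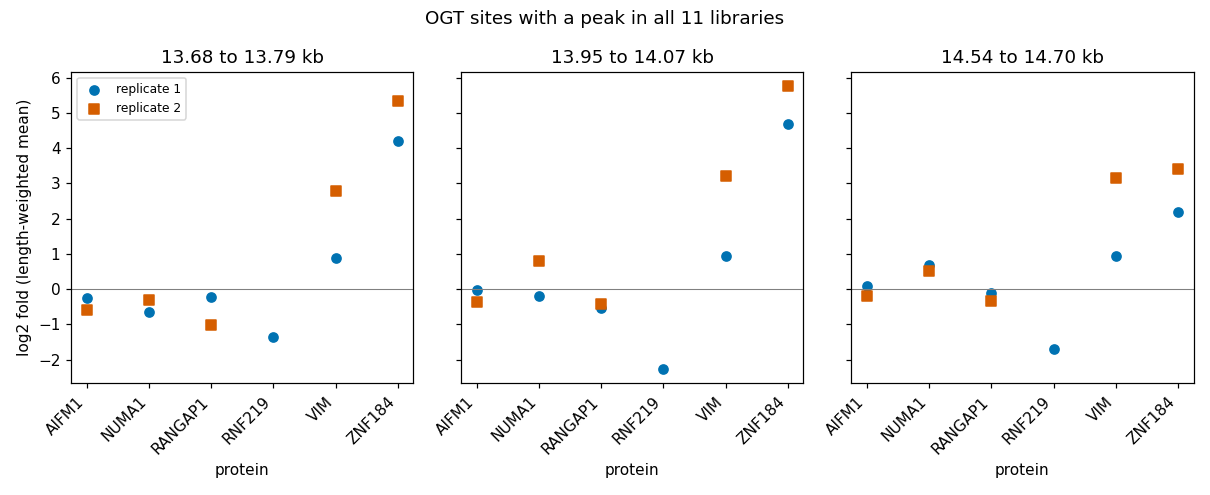
Log2 fold (vertical axis, mean weighted by length) at the 3 OGT sites with a peak in all 11 libraries, by protein, circles for replicate 1 and squares for replicate 2. ZNF184 reaches 5.77 in the middle panel, and RNF219 is lowest in each, down to -2.28.

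The ZNF184 peaks at these sites rested on many eCLIP reads. Their settled input reads at the first and second sites were 5 to 10, and of the settled peaks only replicate 1 at the second site met the minimum of 10. Replicate 2 at the second site was not settled. It fell short of the minimum by its least input reads, and its true number may be higher. Peaks of the other proteins at the first site had from at least 18 (NUMA1 replicate 1) to at least 217 (NUMA1 replicate 2) input reads. At the first site replicate 1 had 108 eCLIP reads beside 8 input reads (log2 fold 4.20, interval 3.17 to 5.45). Replicate 2 had the site in abutting pieces, 1 with 204 reads beside 8 (5.28, 4.28 to 6.52) and 1 with 143 beside 5 (5.45, 4.19 to 7.09). At the second site replicate 1 had 190 reads beside 10 (4.69, 3.78 to 5.78), and replicate 2 had at least 178 beside at least 5, with p saturated. These were the strongest OGT peaks in any list that both replicates of a protein shared. At the third site the piece from 70767580 on had 89 reads beside 13 in replicate 1 (3.22, 2.37 to 4.19) and 156 beside 15 in replicate 2 (3.99, 3.22 to 4.86). The piece before it had 133 beside 56 reads in replicate 1, a log2 fold of 1.69 that was not significant, and 339 beside 60 in replicate 2 (3.11, 2.71 to 3.53).

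ZNF184 thus had 3 OGT sites significant in both replicates, and all lay in the block. Its remaining significant peaks belonged to replicate 2. Inside the block they were at 11.5 kb (3.45 and 3.20, in pieces), 14.1 kb (3.36) and 14.2 kb (3.37). Before the block they were at 3.25 kb (3.17, from 47 reads beside 8, where replicate 1 had 1.62) and 4.75 kb (3.11, from 34 beside 6). After it there were peaks of 2 and 3 nt at 30.1 and 29.9 kb, with log2 folds of 4.93 (20 reads beside 1, interval 2.29 to 10.3) and 4.14 (23 beside 2, 2.12 to 7.27). Replicate 1 had no peak at these last sites. The block also held the lowest ZNF184 values, at 12.2 kb, where replicate 1 was at -1.42 (at least 17 reads beside at least 62) and replicate 2 at 0.18 (46 beside 62). Over the 17 replicate 1 peaks that overlapped a replicate 2 peak, replicate 2 was higher by a median of 1.14 and Spearman's rho of the folds was 0.936, across peaks that share 1 input.

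VIM was significant at 2 of the 3 common sites, in replicate 2 only. At the second site its pieces had 22 reads beside 7 (3.36, 2.09 to 4.83) and 36 beside 14 (3.07, 2.15 to 4.08), and at the third site a piece had 40 beside 12 (3.45, 2.49 to 4.51). Replicate 1 had 6 reads beside 15 at the second site (0.95, -0.70 to 2.40) and 4 beside 10 at the third (0.95, -1.17 to 2.75). These 2 sites were the only OGT sites significant with more than 1 protein, VIM and ZNF184. At the first site VIM replicate 2 had 48 reads beside 23 (2.77, 2.03 to 3.56), short of 8-fold. Of the 7 VIM replicate 1 peaks that overlapped a replicate 2 peak, all 7 were above input in both, and rho was 0.721.

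The 1 OGT site that was significant in both VIM replicates lay before the block, at 6.60 to 6.67 kb (chrX:70759534-70759607). Replicate 1 had 11 reads beside 4 (3.73, interval 1.98 to 5.84) and replicate 2 had 17 beside 4 (3.80, 2.18 to 5.83). At this site AIFM1 had 1.60 and 0.10 and RANGAP1 replicate 1 had 1.21, while NUMA1, RNF219 and ZNF184 had no deposited peak. A site at 31.8 kb (chrX:70784722-70784763) had peaks in both VIM libraries and in no other list. Its log2 folds were 3.86 (3 reads beside 1, 0.22 to 9.57), with a -log10 p of 1.76, and 4.30 (6 beside 1, 1.25 to 9.82), which was significant. A list without a peak there shows only that none was deposited.

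NUMA1 had a site of its own before the block, at 8.73 to 8.78 kb (chrX:70761663-70761713). Replicate 1 had 32 reads beside 17 (log2 fold 1.76, interval 0.87 to 2.70, -log10 p 4.53) and replicate 2 had 27 beside 17 (2.33, 1.41 to 3.30, 7.76). These were the highest NUMA1 folds on OGT, both under 8-fold, and no other protein had a peak within this stretch. In the block NUMA1 values ran from -1.43 to 1.25 in replicate 1 and from -1.75 to 1.08 in replicate 2. The lowest was the site at 12.2 kb, at -1.43 and -1.75, and the highest of replicate 1 was the piece at 14.7 kb (1.25, 53 reads beside 40, 0.64 to 1.88). Folds thus went from below to above input within the block in both NUMA1 libraries. Within the block the NUMA1 peaks had the most input reads, with medians of 56 and 76 (least reads where not settled), against 4.5 to 35 in the other libraries. Outside the block the medians were 18 and 17 in NUMA1 and 25 and 23.5 in RANGAP1.

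RANGAP1 had OGT medians of -0.04 and -0.27, near input, and block medians of -0.15 and -0.66. Its OGT folds ran from -0.97 to 1.26 in replicate 1 and from -1.75 to 1.18 in replicate 2. The highest value shared by both replicates was at 29.8 kb (chrX:70782697-70782743), at 1.19 (34 reads beside 22, 0.37 to 2.03) and 1.18 (28 beside 22, 0.32 to 2.05). Over the 35 replicate 1 peaks that overlapped a replicate 2 peak, rho was 0.861, and 29 of the 35 pairs lay on the same side of input. RANGAP1 had medians of 25 and 22 input reads after the boundary.

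RNF219 peaks fell into those above and those below input, and those below input had more input reads. The 14 peaks above input had 1 to 10 input reads, and the 9 below input had at least 7 to 61. The highest was at 4.75 kb (3.39, from 15 reads beside 1, interval 0.69 to 8.79), followed by 41.7 kb (3.30, 14 beside 1) and by 3.26 and 14.5 kb (both 3.19, 13 beside 1). None of these 4 reached a -log10 p of 3. The RNF219 peak with the lowest p was at 13.1 kb, at 2.53 from 33 reads beside 4 (1.04 to 4.49, -log10 p 4.11), and it missed the 8-fold threshold. In the block RNF219 had 5 peaks above and 8 below input, interleaved, such as 1.99 at 14.2 kb beside -2.28 at 14.0 kb.

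AIFM1 had 1 significant OGT peak, in replicate 2 at 0.194 to 0.253 kb, from 26 reads beside 1 (log2 fold 3.80, interval 1.19 to 9.15). Replicate 1 had no peak there. Near 3.17 kb both AIFM1 libraries had a peak, at 2.28 and 2.27, from 4 and 9 reads beside 1. In the block AIFM1 ran from -0.30 to 1.28 and from -0.59 to 1.62. At 40.9 kb, a site of all 6 proteins near the 3′ bound, AIFM1 replicate 2 had 1.21 at its highest, VIM replicate 2 had 2.65 (23 reads beside 12, 1.58 to 3.79), ZNF184 replicate 2 had 2.55 (42 beside 11, 1.56 to 3.65), and the highest values of RANGAP1 were 0.98 and 0.56. There RNF219 was at 0.41 and NUMA1 at 0.03 and -0.33. In raw folds ZNF184 and VIM were thus above the other proteins, each in 1 library. The medians over all peaks of these libraries differed, at 2.20 in VIM replicate 2, 1.29 in ZNF184 replicate 2 and 0.68 in AIFM1 replicate 2. Part of the raw order, VIM over AIFM1 among it, therefore goes with the level of the library.

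**Figure D5:**
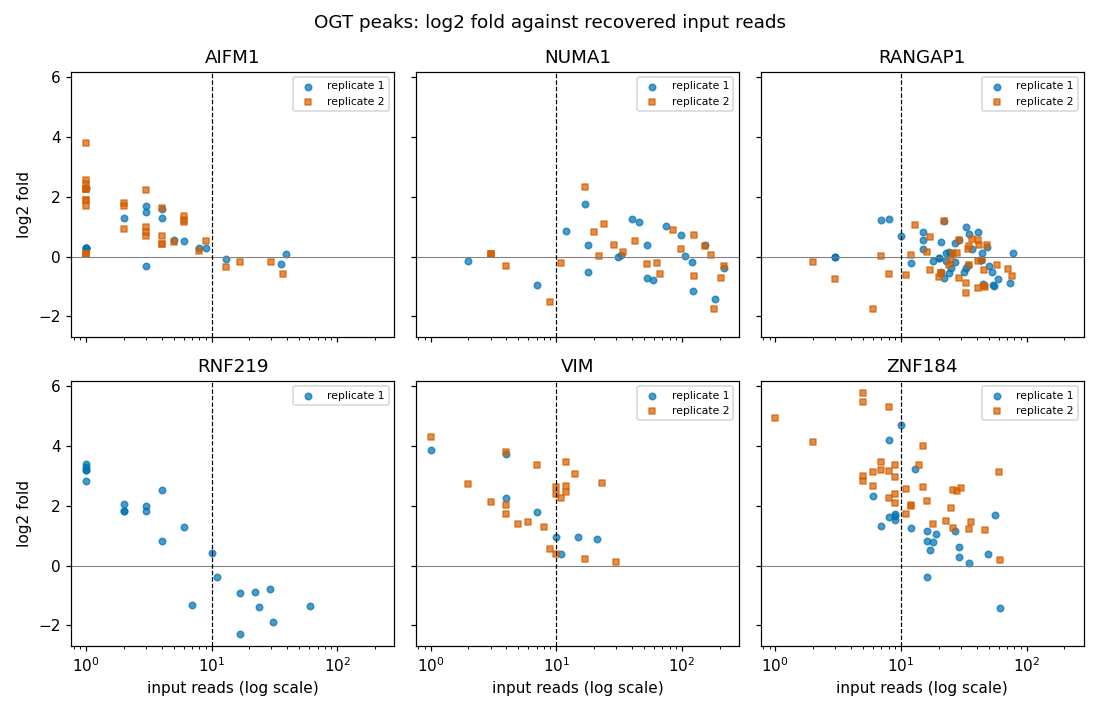
Log2 fold (vertical axis) of OGT peaks against recovered input reads (horizontal axis, log scale), 1 panel per protein, circles for replicate 1 and squares for replicate 2; the dashed line marks 10 input reads. RNF219 peaks above input lie at up to 10 input reads and those below it at 7 reads or more, while most VIM and ZNF184 peaks to the right of the line stay above input. Unsettled peaks, among them every peak below input, are drawn at their least reads.

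Set against other peaks of the same library with at least 10 input reads, OGT peaks were higher in VIM and ZNF184 and lower in the other proteins. Unsettled peaks, among them every peak below input, entered this minimum at their least reads. Some peaks with more input reads were therefore left out, and the effect of this was not tested. The median log2 fold of OGT minus that of all other peaks was 0.31 and 1.60 in ZNF184 (16 and 20 OGT peaks) and 0.28 and 2.29 in VIM (4 and 11 OGT peaks). It was -0.58 and -0.80 in RANGAP1 (40 and 34), -0.26 and -0.34 in NUMA1 (19 and 20), -0.09 and -0.21 in AIFM1 (3 and 4) and -0.29 in RNF219 (9). The means were 0.96 ± 0.91 (SD, n = 2) in ZNF184, 1.28 ± 1.43 in VIM, -0.15 ± 0.08 in AIFM1, -0.30 ± 0.06 in NUMA1 and -0.69 ± 0.16 in RANGAP1. In ZNF184 and VIM replicate 2 gave most of the mean. Without a minimum of input reads VIM turned to -0.39 and RNF219 to 0.22. AIFM1, with few peaks left, turned to 0.22 with at least 20 input reads.

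Other stretches of the genome with a like order of libraries were sought among 467 strand-specific windows of 42815 nt with at least 3 peaks in every library. The measure was Pearson's r over the 11 libraries of the median log2 fold minus the library median. The median r was 0.0912. The 5 windows of highest r were chr1:33224441-33267255 (minus strand, 0.899), chr11:65250061-65292875 (plus, 0.868), chr12:31212136-31254950 (plus, 0.834), chr11:62638346-62681160 (plus, 0.810) and chr17:46026126-46068940 (plus, 0.801). On this scale OGT was at 1.31 in ZNF184 replicate 2 and at -1.69 in RANGAP1 replicate 2, its extremes. The first window had 0.56 and -1.53 in the same libraries, again its highest and lowest. Libraries of a protein share an input, and r is a description of these libraries.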

How the data were processed

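Each of 11 eCLIP libraries had 1 peak list deposited by the authors, with position (hg19), strand, the authors' -log10 p against the size-matched input and the authors' log2 fold over it. The 6 inputs had no list used here. Tools named without version in the submitters' processing notes were SAMtools, Picard, GATK, STAR and cutadapt. Peak caller and treatment of PCR duplicates: not given in the sources used here. Lists are not normalised to each other, so values were compared within a library first.

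Reads were recovered with Python 3.11.15 and scipy 1.17.1. The folds of a library are ratios of whole numbers times 1 depth constant, and p was matched to within 0.005 (log10 scale) by an exact 2-sided test where an observed or expected count was under 5, otherwise by a chi-square test with continuity correction. Between 99.7% and 99.9% of folds gave a whole-number ratio, and p settled the reads of 94.6% to 99.2% of peaks with p above 0 and short of its cap of 400. In a simulated library of 5000 peaks, with p made by these same formulas, 3579 peaks settled and 100.0% of their reads were right. That simulation checks the arithmetic only and cannot show that the formulas are those of the authors. Total reads per library are unknown, and 192 of the 294 OGT peaks settled.

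Significant peaks, medians and the minimum of 10 input reads are as defined in the text. Sites named are those significant with at least 2 proteins and, for each protein, the 5 highest significant peaks, with those significant in both replicates first. Other sites named (among them those of NUMA1, RANGAP1 and RNF219, which had no significant peak, the 3 sites of all libraries and the block) were chosen after their values were seen. The members, the boundary and the lists were chosen with earlier results of these data known. No gene model of hg19 was given, so pathway genes were not analysed here. Nothing says more of how replicates were grown, so SDs measure the spread between these samples.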

Additional observations from a re-analysis of the deposited data

Results flagged for a closer look

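Pairs of proteins whose replicates all lay on opposite sides of 0 are given here. None of these differences was tested, and only proteins with 2 libraries were compared. For the 5′ part minus the rest of OGT, both ZNF184 libraries were above 0 and both AIFM1 libraries below, and the means differed by 1.18 on the log2 scale. With the boundary 4 kb nearer the 5′ end this order reversed, at -0.44 in ZNF184 and 1.27 in AIFM1. For OGT minus other peaks with at least 10 input reads, VIM and ZNF184 were above 0 in both libraries and AIFM1, NUMA1 and RANGAP1 below. The means of VIM exceeded those of AIFM1 by 1.43, of NUMA1 by 1.58 and of RANGAP1 by 1.97. Those of ZNF184 exceeded them by 1.11, 1.26 and 1.65. The AIFM1 values rest on 3 and 4 OGT peaks and the VIM replicate 1 value on 4.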

How the results depend on the processing

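No paired analysis was possible because no result came from a test and replicate numbers of different proteins mark no shared sample. A value counts as moved here when it changed by more than the SD between replicates (for RNF219 the SD pooled over the proteins with 2 libraries), a count when it changed by more than 1.5 times.

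Significant OGT peaks, 16 in ZNF184, 6 in VIM and 1 in AIFM1, became 31, 12 and 1 with a log2 fold of at least 2, which also gave 1 in NUMA1 and 1 in RNF219. With at least 4 they became 7, 1 and 0. A -log10 p of at least 5 left 0 in AIFM1. With abutting or overlapping peaks merged there were 14 in ZNF184, 6 in VIM and 1 in AIFM1. Without 1 replicate they ranged from 3 to 13 in ZNF184, 1 to 5 in VIM and 0 to 1 in AIFM1. The 1 VIM site significant in both replicates was lost with a log2 fold of at least 4, which left 0. That threshold left 2 of the 3 ZNF184 sites, a change of no more than 1.5 times, and the other alternatives left all 3.

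With at least 10 input reads the median of OGT peaks went to -0.19 in AIFM1 and -0.90 in RNF219, and weighting by length gave 0.52 in RNF219. For the 5′ part minus the rest, ZNF184 was at 1.20 weighted by length and 0.46 with at least 10 input reads. A boundary 4 kb nearer the 5′ end, which puts the block into the rest, gave -0.44 in ZNF184, 2.14 in RNF219, 1.27 in AIFM1 and 1.08 in NUMA1. With at least 10 input reads NUMA1 went from 0.03 to -0.14. A boundary 4 kb nearer the 3′ end moved no peak.

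For OGT minus other peaks, weighting by length gave 0.016 in AIFM1, -0.47 in NUMA1 and -0.86 in RANGAP1, and at least 20 input reads gave 0.22, -0.066 and -0.37. Without a minimum the values were -0.39 in VIM, -1.48 in RANGAP1, -1.30 in NUMA1 and -0.30 in AIFM1, and RNF219 turned from -0.29 to 0.22, a change smaller than the pooled SD. The cause of these moves was not tested. Without 1 replicate the values ranged from 0.31 to 1.60 in ZNF184 and from 0.28 to 2.29 in VIM.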
